A study of Mus musculus with 3 samples.

Results

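The 10 genes described here are the Notch ligands Dll1, Dll3 and Jag1, the receptors Notch1, Notch2 and Notch3, and the HES and HEY family genes Hes1, Hes5, Hey1 and Hes6. They were chosen by name, and they make up 10 of the 50262 genes in the deposited count table. Their levels were followed over sorted populations, stages and cell classes of mouse gliomas profiled by single-cell RNA sequencing on the inDrop platform, in which a molecular identifier unique to each transcript copy (UMI) is counted. The mice, of a mixed background and adult when injected, carried a Cre-dependent wild-type human EGFR transgene, no functional Cdkn2a (Cdkn2a -/-) and a conditional luciferase reporter. A Cre lentivirus was injected into the brain, so that the transgene was limited to infected cells, whereas the loss of Cdkn2a was shared by the tumor, the stroma and the leukocytes of all 3 stages. Viable cells were sorted by CD45 into leukocytes (CD45+) and all others (CD45-), which hold the tumor and its stroma, at stages of growth annotated as early, medium and large. The large stage is named late below. Each stage was 1 tumor sample, and the study pooled cells of animals where few were recovered, as in the early stage. Normal brains were not analysed here.

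Notch signaling passes between touching cells. A Delta-like or Jagged ligand on one cell pulls on a Notch receptor on its neighbour, the receptor is cut by an ADAM protease and then by gamma-secretase, and the freed intracellular domain joins RBPJ and a Mastermind protein in the nucleus. There it switches on HES and HEY genes, whose products are repressors that hold back bHLH genes of differentiation. In the brain the pathway is known for keeping neural progenitors undifferentiated and for the contact between endothelial and mural cells of vessels. With the Delta ligands, it is also known for the progenitor-like cells of gliomas.

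After filtering, 17781 of 20811 cells were kept, with 51168586 UMIs, from 24 libraries in 3 sequencing runs, each of which held every stage and sort. The 6 sums of a stage and a sort held 1603 to 5091 cells and 5381839 to 10808099 UMIs. Ptprc, the gene of CD45, lay between 227 and 250 CPM in the CD45+ sums, where CPM is the UMIs of a gene scaled to a total of 1000000, and between 3.59 and 15.9 CPM in the CD45- sums. From early to late, human EGFR lay at 7.28, 706 and 1220 CPM in CD45- sums and at 1.85, 271 and 84.7 CPM in CD45+ sums, so CD45+ sorts were not free of tumor RNA. Of 15845 cell barcodes, 1660 occurred in more than 1 library, and no cell name was repeated. Intervals in parentheses are 95% exact Poisson intervals and cover counting error alone. UMIs of one gene often came from few cells, so the spread between cells was wider than these intervals. For a count of 0, the level given as allowed is 3 UMIs over the total UMIs. That floor lies below the upper end of the exact interval.

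The 10 genes were sparse. Notch2 had the most UMIs, 1900 in 1232 cells, followed by Hes1 (1761 in 659 cells), Hes6 (1280 in 881 cells) and Notch1 (1252 in 1003 cells). The fewest belonged to Notch3 (290 in 135 cells), Dll3 (232 in 165 cells), Dll1 (227 in 127 cells) and Hes5 (196 in 113 cells). Jag1 had 525 UMIs in 359 cells and Hey1 606 in 306 cells. Levels are compared between cells for one gene and not between genes, because UMI counts are not set per transcript length or capture.

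Cells were clustered without these genes and without the other genes of the pathway, and a cluster was named from its markers. CD45- cells with at least 2 human EGFR UMIs were taken as tumor cells and split into those with more Pdgfra than Lgals1 UMIs (Pdgfra-type, 426 cells), those with more Lgals1 than Pdgfra (Lgals1-type, 419 cells) and those with equal counts (314 cells). Cells of 1 progenitor cluster in which 3.37% of cells carried human EGFR are called OPC-like (oligodendrocyte progenitor cell, 289 cells), by a cut at 10% that was set after seeing the data. All class levels are descriptions with no test, since a class has 1 sample per stage.

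**Figure D1:**
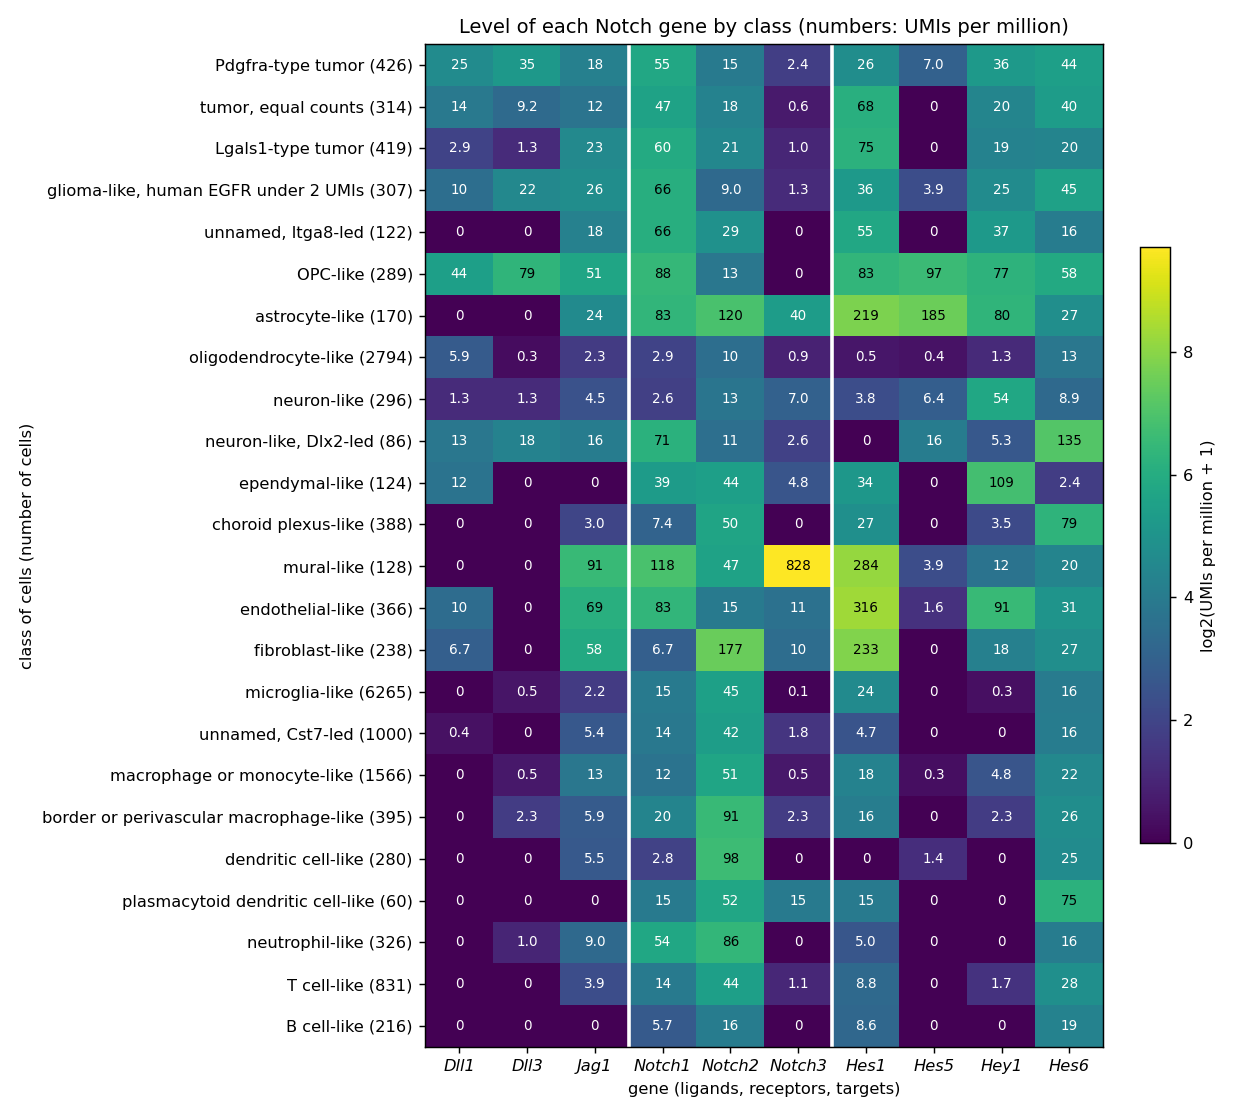
Level of the 10 genes by cell class, as log2(CPM + 1) on the color scale and CPM in the numbers. Rows are classes of at least 50 cells with their number of cells. Not shown are human EGFR cells of the CD45+ sort (198 cells) and unnamed classes led by Ctsg (116 cells) and Gm10718 (61 cells). Notch3 stood at 828 CPM in mural-like cells, Hes5 at 185 CPM in astrocyte-like cells, and Dll3 at 79.2 CPM in OPC-like cells, the highest class for each.

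The Delta ligands had their highest levels in the progenitor-like cells, both with and without human EGFR. Their promoter windows are shown because both genes were found in the same progenitor-like classes and both windows hold the E-box CAGCTG, a motif bound by bHLH factors. Cells that held both genes were not counted. The windows are RefSeq sequences of GRCm38.p6, running from 250 bases before to 50 bases after a start site, 5′ to 3′ on the strand of the gene, with the E-box in capitals. Dll1 lies on chromosome 17 (ENSMUSG00000014773, chr17:15367354-15376872, minus strand) and its window at chr17:15376883-15377182. Dll3 lies on chromosome 7 (ENSMUSG00000003436, chr7:28293553-28302238, minus strand) and its window at chr7:28301736-28302035. 
Dll1 promoter: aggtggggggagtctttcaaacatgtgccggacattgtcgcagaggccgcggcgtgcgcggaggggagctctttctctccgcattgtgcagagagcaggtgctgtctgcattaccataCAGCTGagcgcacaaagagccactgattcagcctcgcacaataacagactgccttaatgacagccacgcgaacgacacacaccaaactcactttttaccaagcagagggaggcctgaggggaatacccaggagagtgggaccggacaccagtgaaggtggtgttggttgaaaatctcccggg 
Dll3 promoter: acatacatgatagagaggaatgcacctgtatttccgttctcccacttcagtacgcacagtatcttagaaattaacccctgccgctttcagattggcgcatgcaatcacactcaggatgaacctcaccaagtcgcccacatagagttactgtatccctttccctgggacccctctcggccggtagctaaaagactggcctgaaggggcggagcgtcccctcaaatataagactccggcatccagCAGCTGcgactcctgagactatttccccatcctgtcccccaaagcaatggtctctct 
The E-box began at position 119 of the Dll1 window and at position 244 of the Dll3 window, counted from 1 at the 5′ end. CAGCTG reads the same on both strands, and 16.3% of all 32851 promoter windows hold it. It was also present in both windows of Hes6 and in that of Jag1, and the window of another annotated start of Dll1 had no match to it. The printed Dll1 window also holds the HES motifs CACGCG at position 183 and CACNAG at position 264, which 9.27% and 42.5% of all windows hold. A match describes the letters and does not show binding.

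Dll3, a divergent Delta protein that is mostly held inside the cell and dampens Notch activity, was most abundant in OPC-like cells, with 65 UMIs in 45 of 289 cells, or 79.2 CPM (61.1 to 101). Pdgfra-type tumor cells followed with 100 UMIs in 65 of 426 cells, or 34.9 CPM (28.4 to 42.4). The share of cells with a Dll3 UMI was 15.6% in OPC-like cells, whose median depth was 2663 UMIs, and 15.3% in Pdgfra-type cells at a median of 6221.5 UMIs. In oligodendrocyte-like cells, at a median of 2454.5 UMIs, a type that should lack the gene, it was 0.0716%. OPC-like cells held 64.2, 69.4 and 132 CPM of Dll3 at the early, medium and late stage. Dll1, a ligand that activates Notch receptors on neighbouring cells, showed the same order, with 36 UMIs in 24 OPC-like cells (43.8 CPM, 30.7 to 60.7) and 71 UMIs in 36 Pdgfra-type cells (24.8 CPM, 19.3 to 31.2). The intervals of these classes overlapped for Dll1 and not for Dll3. Dll1 was also found in oligodendrocyte-like cells, with 47 UMIs in 28 of 2794 cells (5.90 CPM, 4.33 to 7.84), at 8.74, 5.04 and 1.49 CPM from the early to the late sample. In microglia-like cells Dll1 had 0 of 12909467 UMIs, which allows up to 0.232 CPM. Tumor cells with equal Pdgfra and Lgals1 counts held 23 Dll1 UMIs (14.2 CPM, 8.98 to 21.3), and cells of glioma-like clusters with fewer than 2 human EGFR UMIs held 8 (10.3 CPM, 4.46 to 20.4). At 5 or 6 UMIs each, Dll1 lay at 13.2 CPM in Dlx2-led neuron-like, 12.1 CPM in ependymal-like, 9.79 CPM in endothelial-like and 6.68 CPM in fibroblast-like cells and at 7.81 CPM in human EGFR cells of the CD45+ sort, all with intervals that overlapped that of oligodendrocyte-like cells. Lgals1-type tumor cells held 2.88 CPM (1.44 to 5.15).

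Jag1, a Jagged ligand active in vessels and in progenitors (ENSMUSG00000027276, chr2:137081456-137116644, minus strand), was spread over the stroma. Its highest level was 90.7 CPM (57.5 to 136) in mural-like cells, followed by 68.5 CPM (49.4 to 92.6) in endothelial-like, 57.9 CPM (43.3 to 76.0) in fibroblast-like and 51.2 CPM (36.9 to 69.1) in OPC-like cells. The intervals of these 4 classes overlapped. Tumor cells held less, with 22.5 CPM (18.0 to 27.8) in Lgals1-type and 17.8 CPM (13.2 to 23.4) in Pdgfra-type cells, and microglia-like cells held 2.25 CPM (1.50 to 3.23).

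The 3 receptors differed in where they were found. Notch3 (ENSMUSG00000038146, chr17:32120820-32166852, minus strand), the receptor of pericytes and vascular smooth muscle, was concentrated in 1 class. Mural-like cells held 210 of its 290 UMIs, in 80 of 128 cells (62.5%), at 828 CPM (720 to 948). The next class was astrocyte-like cells at 40.1 CPM (22.5 to 66.2), and microglia-like cells had 1 UMI. From the early to the late sample, the mural level stood at 767 CPM (602 to 963), 1105 CPM (880 to 1370) and 646 CPM (484 to 845). Notch1 (ENSMUSG00000026923, chr2:26457903-26516663, minus strand), a broadly used receptor, was led by mural-like cells at 118 CPM (79.8 to 169). OPC-like cells had 87.7 CPM (68.6 to 110), endothelial-like 83.2 CPM (61.9 to 109) and astrocyte-like 82.9 CPM (56.4 to 118), all with intervals that overlapped that of mural-like cells. Tumor cells carried it in both types, at 60.4 CPM (52.9 to 68.8) in Lgals1-type and 55.1 CPM (46.9 to 64.4) in Pdgfra-type cells. Oligodendrocyte-like cells were far lower, at 2.89 CPM (1.83 to 4.33), although they and OPC-like cells belong to one lineage. Notch2 (ENSMUSG00000027878, chr3:98013527-98150361, plus strand), a receptor used in myeloid as well as glial cells, was highest in fibroblast-like cells at 177 CPM (151 to 207). Astrocyte-like cells followed at 120 CPM (87.8 to 161), dendritic cell-like at 98.0 CPM (76.6 to 124), border macrophage-like at 91.5 CPM (72.3 to 114) and neutrophil-like cells at 85.6 CPM (68.5 to 106). Microglia-like cells held 44.5 CPM (41.0 to 48.3), and tumor cells held 21.5 CPM (17.1 to 26.6) in the Lgals1-type and 14.7 CPM (10.6 to 19.8) in the Pdgfra-type. The interval of microglia-like cells lay above those of both tumor types.

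Hes5 (ENSMUSG00000048001, chr4:154960923-154962371, plus strand), a repressor switched on by Notch in neural stem cells and glia, was found mostly in astrocyte-like and OPC-like cells. Its window (chr4:154960673-154960972, plus strand) is printed because it was the only one among the windows searched that held TGGGAA, the core of the motif bound by RBPJ. Hes1 and Hey1 had no window and could not be searched. The matches are in capitals, the first one on the reverse strand. 
Hes5 promoter: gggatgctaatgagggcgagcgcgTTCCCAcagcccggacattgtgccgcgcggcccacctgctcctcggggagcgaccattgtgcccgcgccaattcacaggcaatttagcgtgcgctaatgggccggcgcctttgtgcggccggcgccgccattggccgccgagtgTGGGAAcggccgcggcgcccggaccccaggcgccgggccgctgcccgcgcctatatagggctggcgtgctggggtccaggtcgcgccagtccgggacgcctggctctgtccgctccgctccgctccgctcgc 
The matches began at positions 25 and 169, and 25.6% of all promoter windows hold the motif on either strand. Astrocyte-like cells held 69 Hes5 UMIs in 35 of 170 cells, at 185 CPM (144 to 234), and OPC-like cells 80 UMIs in 48 cells, at 97.4 CPM (77.3 to 121). These classes together held most of its 196 UMIs. Pdgfra-type tumor cells had 20 UMIs (6.98 CPM, 4.26 to 10.8) and Lgals1-type cells 0. Astrocyte-like cells lay at 207, 151 and 212 CPM and OPC-like cells at 82.9, 97.1 and 132 CPM over the early, medium and late samples, so the presence of Hes5 in both classes was seen at every stage.

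Hes1 (ENSMUSG00000022528, chr16:30064384-30067796, plus strand), a repressor that responds to Notch and to other signals, was a gene of the vessel wall and the stroma. Endothelial-like cells had 316 CPM (273 to 364), mural-like 284 CPM (222 to 357), fibroblast-like 233 CPM (202 to 267) and astrocyte-like cells 219 CPM (174 to 272). The endothelial level was 292, 355 and 298 CPM over the stages. Human EGFR cells of the CD45+ sort held 88.5 CPM (68.7 to 112), OPC-like cells 82.8 CPM (64.3 to 105) and Lgals1-type tumor cells 74.6 CPM (66.2 to 83.8), against 26.2 CPM (20.6 to 32.8) in Pdgfra-type cells. Oligodendrocyte-like cells had 4 UMIs (0.502 CPM), and dendritic cell-like cells had 0, which allows up to 4.14 CPM. Hey1 (ENSMUSG00000040289, chr3:8663359-8667256, minus strand), a target that acts in endothelium and in neural progenitors, was at 109 CPM (79.4 to 146) in ependymal-like, 91.3 CPM (69.0 to 119) in endothelial-like, 80.3 CPM (54.2 to 115) in astrocyte-like and 76.7 CPM (59.0 to 98.2) in OPC-like cells. The intervals of these 4 classes overlapped. Neuron-like cells had 54.3 CPM (43.4 to 67.1), of which 26 of 85 UMIs came from 1 cell. Hes6 (ENSMUSG00000067071, chr1:91411483-91414038, minus strand) is a family member that promotes neuronal differentiation and opposes Hes1. It was highest in a neuron-like cluster led by Dlx2, with 51 UMIs in 27 of 86 cells (135 CPM, 100 to 177), a level that rests on the clustering: with each cell classed by its own markers, the neuron class as a whole held 16.5 CPM (10.8 to 24.2) in 310 cells, and choroid plexus cells were highest. The same cluster had 0 Hes1 UMIs, which allows up to 7.93 CPM. Choroid plexus-like cells held 78.7 CPM (67.7 to 91.1) of Hes6, OPC-like 58.5 CPM (43.1 to 77.5) and Pdgfra-type tumor cells 44.0 CPM (36.6 to 52.3).

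The comparison of CD45+ with CD45- cells asked whether leukocytes or the tumor and its stroma held the pathway. Counts were summed per tumor sample and sort, and the 3 pairs entered edgeR's quasi-likelihood test, which was two-sided and blocked by tumor sample. p-values were adjusted after Benjamini and Hochberg over the 18433 genes tested, at a threshold of 0.05. In these sums, fewer cells of a type and less RNA per cell cannot be told apart. Of the 10 genes tested, Notch2 was higher in CD45+ cells and Dll1, Dll3, Jag1, Notch3, Hes5 and Hey1 were lower, whereas Notch1, Hes1 and Hes6 did not pass. Of all genes, 46.1% passed in either direction, 20.4% higher and 25.7% lower. The median log2 fold change was -1.73 over the 10 genes and -0.04 over all genes. Dll1, Dll3 and Hes5 passed the filter on low counts through the CD45- sums alone, so they had to be lower. Their calls, and the median that includes them, say nothing against the values over all genes. Notch3 passed the filter in 1 of 3 CD45+ sums.

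**Figure D2:**
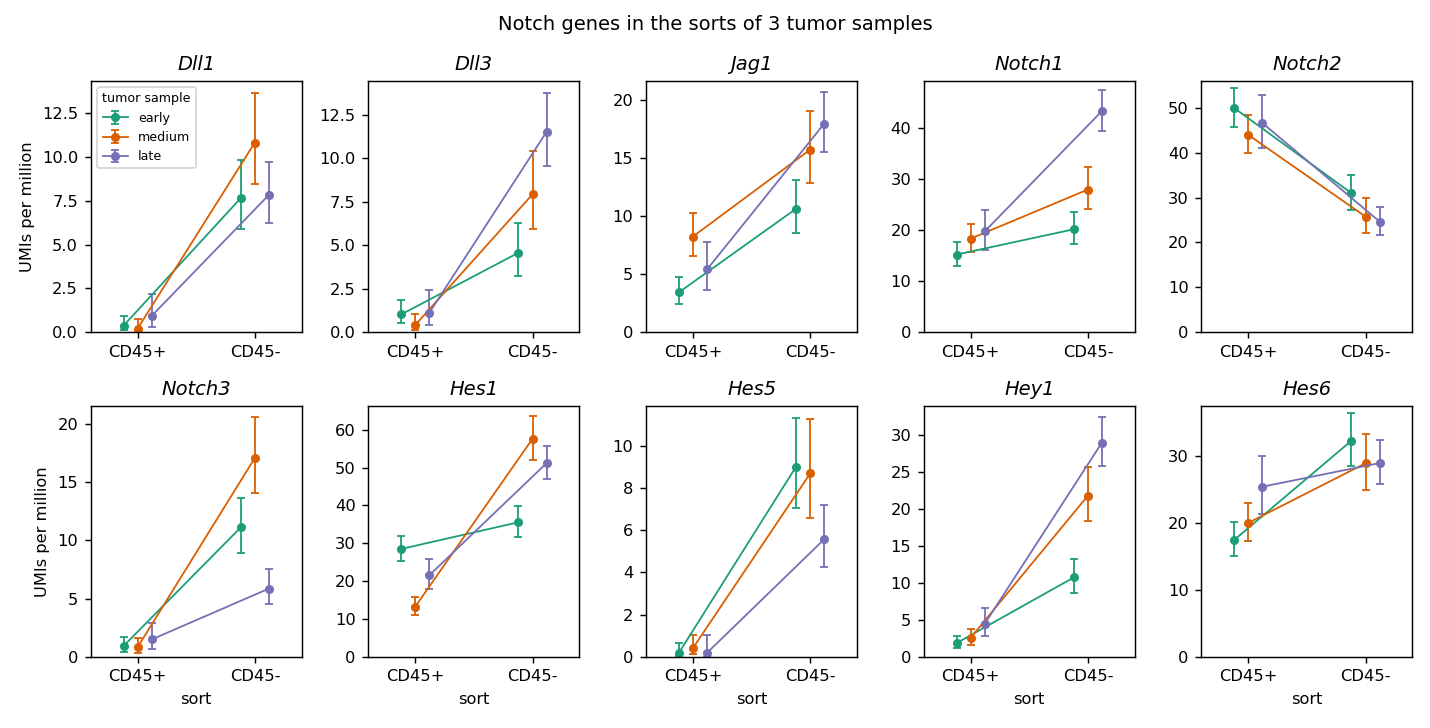
CPM of each gene in the CD45+ and CD45- sums of the early, medium and late tumor samples, with lines joining the sorts of a tumor sample and bars giving exact Poisson 95% intervals. Notch2 lies higher in CD45+ cells in all 3 pairs, between 44.0 and 49.96 CPM against 24.6 to 31.0 CPM.

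From early to late, Hes5 stood at 0.185, 0.411 and 0.186 CPM in CD45+ sums and at 9.01, 8.69 and 5.57 CPM in the CD45- sums. The log2 fold change of Hes5 was -4.49 (SE 0.48, edgeR adjusted p = 0.000383), in a direction fixed by the filter. Of its CD45- UMIs, 41.3% came from OPC-like and 36.0% from astrocyte-like cells. Hey1 had 1.85, 2.57 and 4.46 CPM in CD45+ against 10.7, 21.8 and 29.0 CPM in CD45- cells, a log2 fold change of -2.41 (SE 0.28, edgeR adjusted p = 0.000490). Its CD45- level was lowest in the early and highest in the late sample. Notch3 had 0.925, 0.822 and 1.49 CPM in CD45+ against 11.1, 17.1 and 5.85 CPM in CD45- cells (log2 fold change -3.01, SE 0.49, edgeR adjusted p = 0.00226). Mural-like cells gave 202 of its 264 CD45- UMIs, and 8 of its 26 CD45+ UMIs as well.

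The Delta ligands were nearly absent from CD45+ sums, and the filter fixed the direction of both. Dll1 had 0.370, 0.206 and 0.929 CPM there and 7.65, 10.8 and 7.84 CPM in CD45- cells, with a log2 fold change of -3.89 (SE 0.53, edgeR adjusted p = 0.000944). Dll3 had 1.02, 0.411 and 1.11 CPM against 4.57, 7.93 and 11.5 CPM (-2.79, SE 0.47, edgeR adjusted p = 0.00244). Cells with human EGFR gave 6 of the 11 Dll1 UMIs and 7 of the 21 Dll3 UMIs in the CD45+ sort, and the part of tumor RNA in that sort's remaining level was not tested. In the CD45- sort, Pdgfra-type tumor cells gave 47.4% and OPC-like cells 29.4% of Dll3 UMIs. Of Dll1 UMIs there, Pdgfra-type cells gave 32.9%, oligodendrocyte-like cells 21.8% and OPC-like cells 16.2%. Jag1 had 3.42, 8.22 and 5.39 CPM in CD45+ and 10.6, 15.7 and 17.9 CPM in CD45- cells, a log2 fold change of -1.05 (SE 0.30, edgeR adjusted p = 0.0255). This call did not hold without the block (adjusted p = 0.0727), without the early sample (0.0940), without the late sample (0.130) or without run 2 (0.0860). Notch2 ran the other way, with 49.96, 44.0 and 46.6 CPM in CD45+ and 31.0, 25.8 and 24.6 CPM in CD45- cells (log2 fold change 1.16, SE 0.19, edgeR adjusted p = 0.00223). Microglia-like cells gave 44.1% of its CD45+ UMIs. The receptors Notch2 and Notch3 thus lay on opposite sides of the sort, and each was on its side in 3 of 3 pairs. For Notch3, 1 of 3 CD45+ sums passed the filter on low counts, so the CD45- sums carried it into the test.

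Hes1, Notch1 and Hes6 did not pass. Hes1 had 28.5, 13.3 and 21.6 CPM in CD45+ and 35.6, 57.6 and 51.2 CPM in CD45- cells, with a log2 fold change of -0.86 (SE 0.32, edgeR adjusted p = 0.0691). It passed without the early sample (adjusted p = 0.0129), without TMM factors (0.0220), without the filter (0.0328) and with cells thinned to equal depth (0.0431). Notch1 had 15.2, 18.3 and 19.7 CPM against 20.1, 27.9 and 43.3 CPM (-0.35, SE 0.23, edgeR adjusted p = 0.242), and it passed without TMM factors (-0.72, adjusted p = 0.0335), a scaling that moved the median of all genes to -0.40. Hes6 had 17.5, 20.04 and 25.5 CPM against 32.3, 29.0 and 29.0 CPM (-0.17, SE 0.22, edgeR adjusted p = 0.565).

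The part of the CD45+ sort that carried Hes1 was examined further, after its values were seen. Microglia-like cells gave 55.2% of its CD45+ UMIs. Over both sorts they had 307 UMIs in 103 of 6265 cells (23.8 CPM, 21.2 to 26.6). From early to late, the level was 27.9 CPM (24.6 to 31.6), 20.3 CPM (14.1 to 28.2) and 9.85 CPM (6.17 to 14.9). A microglia-like cluster of 1503 cells led by the heat shock genes Hspa1b and Hspa1a held 194 of the UMIs, in 47 cells, at 72.8 CPM (62.9 to 83.8), against 7.30 to 14.01 CPM in the other microglia-like clusters. Hspa1a stood at 1392 CPM in that cluster and between 81.5 and 540 CPM in the others, whereas Fos, an early-response gene of dissociation and activation, was at 2200 CPM within a range of 1736 to 3336 CPM. The cluster made up 24.6%, 14.9% and 29.0% of microglia-like cells from early to late, and its own Hes1 level was 84.8, 63.5 and 32.9 CPM. In the 4 early CD45+ libraries, its Hes1 level was 0 (7 cells), 77.2, 28.6 and 146 CPM, and 56 of the 94 UMIs of the last came from 1 cell. In the 4 medium ones it was 0, 124, 95.7 and 0 CPM, in 13 to 51 cells, and in the 2 late ones 70.7 CPM (107 cells) and 6.74 CPM (189 cells). The part of heat shock or of single libraries in the Hes1 level was not tested.

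Tumor cells were then compared by type, on Pdgfra, a receptor gene of the oligodendrocyte progenitor lineage, and Lgals1, which encodes galectin-1. Of the 1159 tumor cells, 4 were early, so the medium sample (134 Pdgfra-type and 68 Lgals1-type cells) and the late sample (292 and 350 cells) formed the 2 pairs of the test, with 1 residual degree of freedom. Of the split cells, 122 differed by 1 UMI between Pdgfra and Lgals1, and 303 of the 314 equal cells had 0 of both. Of the 10 genes, 8 passed the filter on low counts and were tested. Dll1 and Dll3 were higher and Hes1 was lower in Pdgfra-type cells, against 19.0% of 12343 genes that passed in either direction, 8.59% higher and 10.4% lower. The median log2 fold change was 0.20 over the 8 genes and 0.00 over all genes. Dll1 and Dll3 passed the filter on low counts through the Pdgfra-type cells alone, so they had to be higher. Their calls, and the median that includes them, say nothing against the values over all genes. Of the other genes tested, Notch1, Notch2, Jag1 and Hes1 had negative log2 fold changes and Hey1 and Hes6 positive ones.

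**Figure D3:**
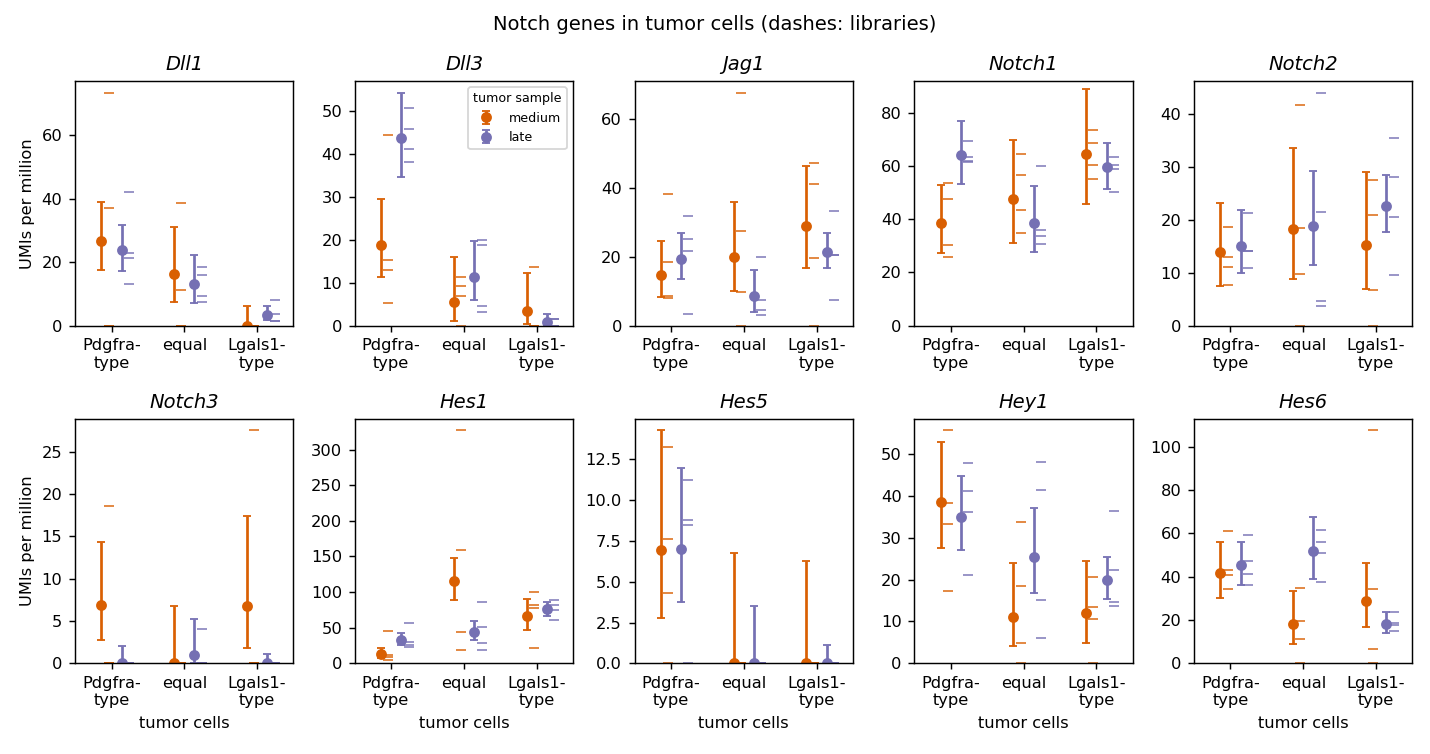
CPM of each gene in Pdgfra-type tumor cells, cells with equal Pdgfra and Lgals1 counts, and Lgals1-type tumor cells of the medium and late samples, with exact Poisson 95% intervals as bars and single libraries as dashes. Dll3 reaches 43.6 CPM in late Pdgfra-type cells and 0.930 CPM in late Lgals1-type cells. Hes1 lies lower in Pdgfra-type than in Lgals1-type cells of both samples, and in the medium sample cells with equal counts are highest.

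Dll3 had 18.8 CPM (11.3 to 29.4) in medium and 43.6 CPM (34.6 to 54.2) in late Pdgfra-type cells, against 3.40 CPM (0.412 to 12.3) and 0.930 CPM (0.192 to 2.72) in Lgals1-type cells. In the late libraries, Pdgfra-type cells had 18, 26, 18 and 19 UMIs and Lgals1-type cells 1, 2, 0 and 0. The log2 fold change was 4.44 (SE 0.74, edgeR adjusted p = 0.000159). Cells with equal counts lay between, at 5.48 CPM (medium) and 11.3 CPM (late). Without run 3 the adjusted p of Dll3 was 0.0569 (log2 fold change 3.94), without run 1 the log2 fold change was 7.86, and within the medium sample alone the log2 ratio was 2.18. Dll1 had 26.7 CPM (17.6 to 38.9) and 23.7 CPM (17.2 to 31.8) in medium and late Pdgfra-type cells. In Lgals1-type cells it had 0 of 588038 UMIs in the medium sample, which allows up to 5.10 CPM, and 3.41 CPM (1.70 to 6.10) in the late sample. The log2 fold change was 3.11 (SE 0.67, edgeR adjusted p = 0.00173). The medium value rested on 27 UMIs in 8 cells, of which 1 cell had 10. Within that sample alone the log2 ratio was 5.00, a size set by a small count added to each sum, because Lgals1-type cells had 0. The call did not hold in DESeq2 (3.66, adjusted p = 0.0528) or without run 1 (2.25, adjusted p = 0.0652).

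Hes1 had 12.9 CPM (6.85 to 22.0) and 33.4 CPM (25.6 to 42.8) in medium and late Pdgfra-type cells and 66.3 CPM (47.2 to 90.7) and 76.2 CPM (67.0 to 86.4) in Lgals1-type cells. The log2 fold change was -1.79 (SE 0.36, edgeR adjusted p = 0.000893), and Lgals1-type cells were higher in both samples. Late Lgals1-type cells with a Hes1 UMI made up 27.7%, and late Pdgfra-type cells 9.25%, at median depths of 8204.5 and 5661.5 UMIs. The call did not hold without run 2 (-1.24, adjusted p = 0.0536) or with cells thinned to equal depth (-2.04, adjusted p = 0.0767). Equal cells had 115 CPM of Hes1 in the medium sample, from 63 UMIs in 16 of 95 cells, and 44.4 CPM in the late sample.

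Hes5 did not reach the filter on low counts and was left out of the test. It had 6.93 and 7.001 CPM in medium and late Pdgfra-type cells and 0 in Lgals1-type and equal cells of both samples. Over both samples this was 20 UMIs in 13 cells against 0 of 3814987, at least 8.87-fold higher against a floor of 3 counts over the group. Of the 7 medium UMIs, 5 lay in 1 cell, and Pdgfra-type cells of run 3 had 0 in either sample. Hes1 and Hes5, both targets of Notch, stood on different sides of the split in these counts. The Hes5 side rests on few cells, and that contrast between the genes was not tested. The other genes did not pass. Hey1 had 38.6 and 35.0 CPM in medium and late Pdgfra-type cells against 11.9 and 19.8 CPM in Lgals1-type cells (log2 fold change 0.95, SE 0.42, edgeR adjusted p = 0.120), and 13 of its 39 medium UMIs came from 1 cell. Hes6 had 41.6 and 45.2 CPM against 28.9 and 18.3 CPM (0.82, SE 0.38, edgeR adjusted p = 0.149), and it passed when tumor cells needed 4 human EGFR UMIs (1.53, adjusted p = 0.0296). Of its 17 UMIs in medium Lgals1-type cells, 10 came from 1 cell. Hey1 and Hes6 were both higher in Pdgfra-type cells of either sample. Notch1 had 38.6 and 64.1 CPM against 64.6 and 59.5 CPM (-0.41, SE 0.32, edgeR adjusted p = 0.437), with the samples differing in direction. Jag1 had 14.9 and 19.4 CPM against 28.9 and 21.4 CPM (-0.64, SE 0.46, edgeR adjusted p = 0.398), and Notch2 13.9 and 15.1 CPM against 15.3 and 22.6 CPM (-0.59, SE 0.49, edgeR adjusted p = 0.486). Notch3 had 7 UMIs in Pdgfra-type and 4 in Lgals1-type cells, all of the medium sample, and was left out of the test by the filter.

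Markers of other cells moved with the split. The progenitor markers, which include Pdgfra itself, summed to 7586 to 8265 CPM in Pdgfra-type and 1025 to 1335 CPM in Lgals1-type cells, with 6 of 8 higher. Fibroblast markers summed to 83.2 to 95.3 CPM against 616 to 792 CPM, with 3 of the 4 tested lower in Pdgfra-type cells. Mural markers, of which none reached the filter, lay at 4.31 to 33.7 CPM against 5.27 to 74.8 CPM with 4 of 7 at 0 in Pdgfra-type cells and Myh11 at 0 in both, and endothelial markers at 26.7 to 41.5 CPM against 42.1 to 98.6 CPM. Astrocyte markers had 3 higher and 1 lower of 5 tested, and microglia markers, at 38.6 to 52.2 CPM against 52.7 to 108 CPM, had 2 lower of 4 tested. Oligodendrocyte markers had 1 higher and 1 lower of 7 tested, neuron markers 1 higher and 1 lower of 2, and the 1 natural killer cell marker tested was lower. Of 8 macrophage or monocyte markers, which summed to 15.6 to 356 CPM against 72.5 to 466 CPM, 1 was tested and did not pass, and Tgfbi, at 3 UMIs in Pdgfra-type and 212 in Lgals1-type cells, was not tested. Each of the other lists had 0 to 2 markers tested, so most of their genes could not pass. The part of these markers in the differences of Hes1, Dll1 and Dll3 was not tested. Of Pdgfra-type cells, 302 lay in a cluster led by Bcas1os2, and of Lgals1-type cells 341 lay in an unnamed cluster led by Itga8. Of the 590 cells in the Itga8-led cluster, 568 were late. A cluster led by AI506816, whose 370 cells were all medium, held 89 Pdgfra-type and 59 Lgals1-type cells. Most medium cells of both types thus shared 1 cluster, and the types were not the same separate populations in both samples.

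Stages were compared as values alone. Beside the levels given above, Hey1 in endothelial-like cells stood at 52.0 CPM (27.7 to 89.0), 63.0 CPM (34.4 to 106) and 206 CPM (138 to 296) from early to late, so the late interval lay above the other two. OPC-like cells had 42.8, 93.7 and 126 CPM of Hey1 and 42.8, 125 and 101 CPM of Hes1. Dll1 in OPC-like cells had overlapping intervals, at 42.8 CPM (24.5 to 69.5), 48.6 CPM (26.5 to 81.5) and 37.8 CPM (13.9 to 82.2). Macrophage-like cells had 108 CPM of Hes1 in the early sample, from 31 UMIs in 5 cells of which 24 lay in 1 cell, and 7.82 and 16.4 CPM in the medium and late samples. Choroid plexus-like cells had 85.6, 72.5 and 53.1 CPM of Hes6. With 1 tumor sample per stage, stage and animal cannot be told apart.

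**Figure D4:**
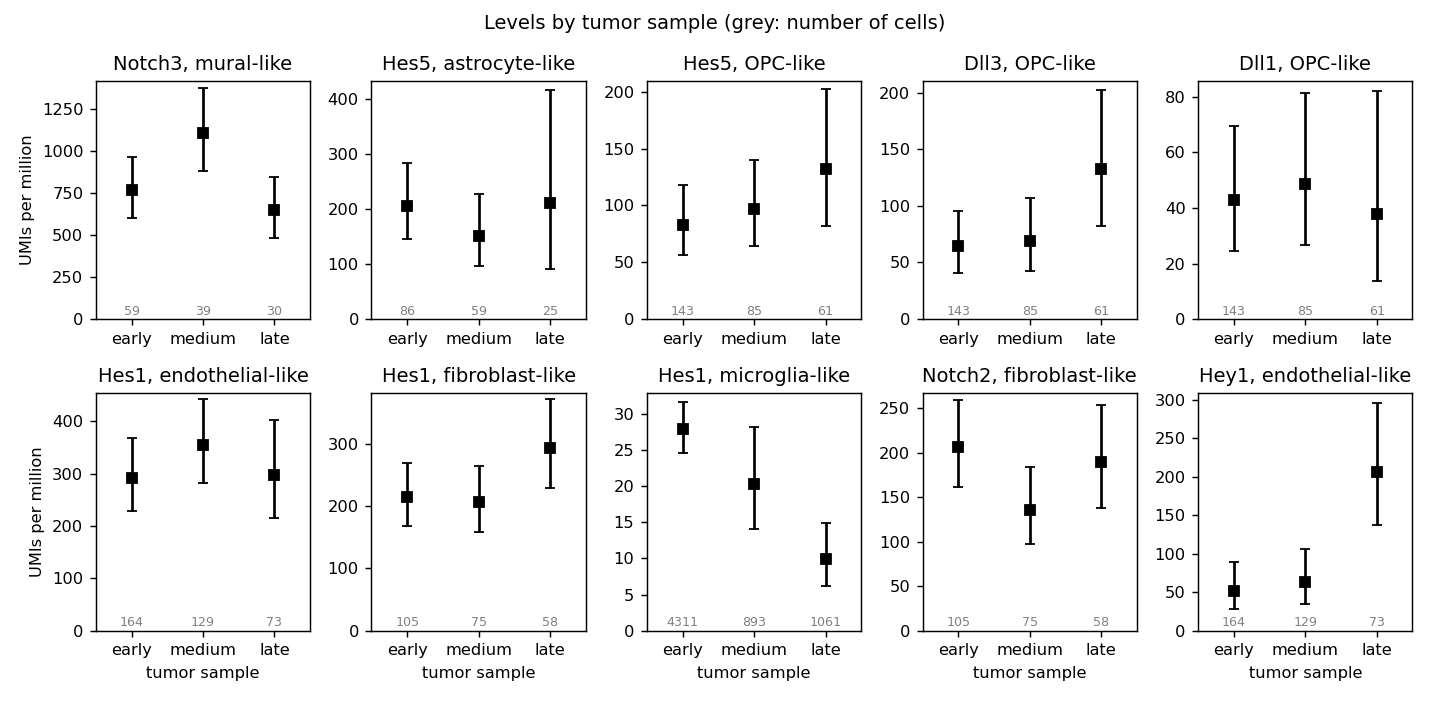
CPM of 10 pairs of a gene and a cell class at the early, medium and late stage, with exact Poisson 95% intervals and cell numbers in grey, for pairs chosen after their values were seen. Endothelial-like Hey1 climbs to 206 CPM in the late sample and microglia-like Hes1 lies at 27.9, 20.3 and 9.85 CPM.

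The rest of the pathway was read from a list of 52 genes. In the sorts 45 were tested, and 12 were higher and 14 lower in CD45+ cells, against 20.4% higher and 25.7% lower of all genes. Their median log2 fold change was 0.03, and the counts and the median include genes whose direction was fixed by the filter. The ligands Dner (-3.42), Dlk2 (-5.05), Dll4 (-2.38) and Dlk1 (-2.03) were lower in CD45+ cells, but Dlk2, Dll4 and Dlk1 passed the filter through the CD45- sums alone and had to be. Lower too were the Notch targets Hey2 (-3.10), Heyl (-3.04), Nrarp (-2.30) and Dtx1 (-2.28), whereas Hes7, at 3.24 CPM or below in every sum, was higher. Hey2 and Nrarp passed the filter in 2 of 3 CD45+ sums and Heyl in 1. Of the 9 genes of the nuclear complex 3 were higher in CD45+ cells, namely Rbpj (1.28), the DNA-binding partner of Notch, Maml3 (1.44) and Ep300 (0.83). The sums of Maml3 and Ep300 overlapped between the sorts, and Maml3 was higher in 2 of 3 pairs, with 10.6 CPM in CD45+ against 13.6 CPM in CD45- cells of the medium sample. Of 10 cleavage genes 4 were higher and 1 lower, and the proteases Furin (1.51) and Adam17 (1.24) were higher and Aph1b (-1.66) was lower. The Fringe glycosyltransferases Mfng (3.24) and Lfng (2.59), which tune ligand choice, were higher and Poglut1 (-0.87) lower, and Neurl1a (2.41) was the 1 of 4 ubiquitination genes that passed. The Notch antagonist Numb (1.66) was higher and its relative Numbl (-1.50) lower. Insm1 (-3.50), a gene of neuronal differentiation, was lower and also passed the filter through the CD45- sums alone. Notch4 did not pass.

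In the tumor cell types 34 of the list were tested, with 3 higher, 4 lower and a median log2 fold change of 0.21, against 8.59% higher and 10.4% lower of all genes. The counts and the median include genes whose direction was fixed by the filter. Dner, a Delta-related ligand, was higher in Pdgfra-type cells (log2 fold change 3.74, SE 0.50, edgeR adjusted p = 4.76e-06), as was Dtx1 (2.04, SE 0.47, edgeR adjusted p = 0.00244). Heyl, a HEY family gene of mural cells, had 0.9901 and 0.539 CPM in Pdgfra-type against 13.6 and 14.6 CPM in Lgals1-type cells (-4.36, SE 0.87, edgeR adjusted p = 0.000687). Dner passed the filter on low counts through the Pdgfra-type cells alone and Heyl through the Lgals1-type cells alone, so the direction of both was fixed. The proteases Adam10 and Adam17, which cut the receptor, and Ncstn, a subunit of gamma-secretase, were lower in Pdgfra-type cells (log2 fold changes -0.77, -0.95 and -1.02).

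The genes most like each member were sought over 56 sums of a class and a stage among 16832 genes, as Pearson's r of log2(CPM + 1). The sums share libraries and differ in depth, so r is given as a description. Dll3 was most like Sema5b (0.90), Nxph1 (0.87) and C1ql1 (0.87), and Dll1 like Kctd4 (0.80), Tox3 (0.79) and Tram1l1 (0.79). Notch3 was most like Atp13a5 (0.75), Vtn (0.72) and Pdgfrb (0.71), and Hes5 like Dbx2 (0.85), Wnt7a (0.84) and Gabrg1 (0.82). Hey1 went with Cpe (0.87), Sparcl1 (0.86) and Ptprg (0.84), Hes1 with Igfbp7 (0.76), Cd151 (0.74) and Laptm4a (0.74), and Notch1 with Gm13568 (0.87), Afap1l2 (0.72) and Nrarp (0.70). For Notch2 they were Smim3 (0.69), Ggt5 (0.65) and Pbxip1 (0.63), for Jag1 Ptpn12 (0.71), Npr2 (0.68) and Alpl (0.68), and for Hes6 Mad2l2 (0.64), Pcbp1 (0.64) and Gm29737 (0.58). Between members, r was highest at 0.72 for Dll1 and Dll3, 0.65 for Hes1 and Hey1 and 0.63 for Notch1 and Hes1. It was lowest at -0.51 for Notch2 and Dll1 and -0.49 for Notch2 and Dll3.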

How the data were processed

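Single cells of 3 tumor samples were profiled in 24 libraries of 3 sequencing runs. The authors mapped inDrop reads with RapMap in bcbio-nextgen to the GRCm38 transcriptome with transgenes added, and the submitters' notes name mm10. UMI counts were deposited without normalization, as a table of genes by cells. The deposited library annotation holds text (unit: other) on run, sort and stage. The study describes removal of ambient RNA and doublets but not whether this preceded the table, so neither was taken as done.

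The members and the gene lists were chosen with earlier results of these data known. All 10 members are named, and other pathway genes are named where they passed a test, at most 4 per group and comparison by absolute log2 fold change. Some items are not reported here. Cells were kept at 500 UMIs, 500 genes and at most 20% mitochondrial UMIs (17894 cells). Scrublet scores removed 113 of 17786 tested cells (expected rate 6%). The called rate was far under the expected one, so removal of the top 5% of scores was an alternative. Cells scaled to 10000 UMIs were clustered by the Leiden algorithm (leidenalg 0.10.2, 2000 genes, 40 components, 20 neighbours, resolution 1, 33 clusters), and a cluster was named with at least 3 markers 2-fold higher and present in 10% of its cells.

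Summed counts were tested with edgeR 4.0.16 in R 4.3.3 (TMM, filterByExpr, robust), and with DESeq2 1.42.0 as an alternative. Scripts were tested on simulated data. Replicate 1 is the early, 2 the medium and 3 the late tumor sample, so same-numbered sums come from the same dissociation. The 3 samples of the deposit are the sequencing runs, and these replicate numbers are not theirs. Deviations of same-numbered sums correlated at 0.362, 0.275 and 0.278 across 18433 genes for the sorts, and at 0.406 across 12343 genes for the tumor types, and the block was kept. The SE of a log2 fold change is its size over the square root of F. p-values rest on the spread between these samples, which are 1 per stage, and on spread that edgeR shares across genes. With 2 residual degrees of freedom in the sorts and 1 in the tumor types, they lean on the shared part. CPM is scaled to 1000000 UMIs. Alternatives changed the scaling, tool, low-count filter, cell filter, doublets, block, runs, samples, depth (1000 UMIs per cell), tumor cell rule, margin of the split and classes. Coordinates are from GENCODE M21 on GRCm38, and promoter windows from RefSeq on GRCm38.p6 were found for 8 of the 10 members, all but Hes1 and Hey1. The RefSeq windows were searched on both strands for the RBPJ core TGGGAA, for the E-boxes CAGCTG and CACGTG, and for the HES motifs CACGCG and CACNAG.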

Additional observations from a re-analysis of the deposited data

How the results depend on the processing

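In the sort comparison, the members called numbered 6 to 9 in all alternatives against 7 in the fit reported, and 6 to 7 when a tumor sample was left out, with 7049 to 7098 of all genes called then. Leaving out the early sample turned Hes6 to a log2 fold change of 0.087, within a range of -0.33 to 0.087 when each sample was left out. In the tumor cell types, the genes called fell from 2346 to 976 in DESeq2, 690 with cells thinned to 1000 UMIs, 1411 without run 2 and 1085 without run 3, and to 1156 without the replicate block. Dll1, Dll3 and Hes1 passed with and without the block, so in this comparison the pairing changed no member's call. Without the block in the sorts Jag1 was the member that lost its call, and 7868 of all genes passed. After thinning 2 members passed the filter and 0 were called by edgeR (adjusted p = 0.0767 for Hes1 and 0.879 for Notch1), and Notch1 turned to 0.26. Scaling without TMM factors gave 1293 genes higher and 903 lower in the tumor cell types (58.9% higher, against 45.2%), and 2589 higher and 6559 lower in the sorts. Hes5 passed the tumor type test once the filter on low counts was dropped. Within single tumor samples, a value chosen after seeing the data, the medium and late values were 5.00 and 2.75 for Dll1, 2.18 and 5.34 for Dll3, and -2.33 and -1.18 for Hes1 (log2 ratios). A small count was added to each sum. With no Dll1 UMI in medium Lgals1-type cells, that count sets the 5.00, which cannot be ranked against the 2.75. The highest class was the same for 7 of 10 members when each cell was classed by its own markers. It then moved from mural (78.0 CPM) to endothelial cells for Notch1, from ependymal (59.8 CPM) to endothelial cells for Hey1, and for Hes6 from Dlx2-led neuron-like cells, which that rule does not separate from other neurons (16.5 CPM together), to choroid plexus cells. With a mean over cells it moved for Hey1 alone, again to endothelial cells. Depth limits the Delta ligands and Hes5 most, which had 196 to 232 UMIs in all.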

Other observations

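Other pathway genes also sorted by class, as levels with no test. Endothelial-like cells held the highest Dll4 (124 CPM), Jag2 (126 CPM) and Notch4 (96.2 CPM), genes known from arterial vessels, and mural-like cells the highest Heyl (256 CPM, 65 UMIs in 41 of 128 cells), Hey2 (94.6 CPM) and Nrarp (98.6 CPM), beside their Notch3. Astrocyte-like cells led for Lfng (195 CPM) and Dtx1 (153 CPM), beside their Hes5. Rbpj was highest in dendritic cell-like (218 CPM) and T cell-like cells (216 CPM). Dner (273 CPM) led in OPC-like cells, Insm1 (394 CPM) in the Dlx2-led neuron-like cluster and Dlk2 (46.8 CPM) in oligodendrocyte-like cells.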
